A study of Mus musculus with 6 samples.

Results

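Oxidative phosphorylation subunits are the nuclear-encoded proteins of the respiratory chain and of ATP synthase. Probe sets were taken as members when the platform annotation gave them exactly 1 gene, with a symbol beginning Ndufa, Ndufb, Ndufc, Ndufs, Ndufv, Uqcr, Cox4 to Cox8 or Atp5, or equal to Sdha, Sdhb, Sdhc or Sdhd, and the Ndufaf assembly factors were left out. This gave 169 of the 45037 probe sets tested and 82 of the 18193 genes with such a probe set. Complex I held 36 of the genes, complex II 4, complex III 8, complex IV 17 and complex V 17. The samples were whole pancreas of adult mice of 8 weeks, 3 Rkip-1 KO and 3 WT, from a single colony kept on a C57BL/6 background. Rkip-1 (Raf kinase inhibitor protein, listed as Pebp1) restrains signalling from Raf to MEK and ERK. The labels call the arrays of a genotype biological replicates without saying how many mice gave each, and they do not describe the knockout allele. Total RNA was measured with 1 Affymetrix array per sample, and all values below are log2 RMA signals, with KO minus WT as the difference.

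Complexes I, III and IV pass electrons from NADH and ubiquinol to oxygen and pump protons out of the mitochondrial matrix, complex II feeds in electrons from succinate, and complex V uses the proton gradient to make ATP. Acinar cells, which make up most of the pancreas, spend much ATP on making and secreting digestive enzymes, and beta cells couple ATP from this pathway to insulin release. The nuclear subunits are made in the cytosol, imported, and joined with subunits encoded by mitochondrial DNA. Many of their promoters are known to bind the activators NRF1, GABP (an ETS factor) and YY1.

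Pebp1 measured 5.89, 6.50 and 5.71 in KO, against 9.81, 10.01 and 9.81 in WT (adjusted p = 5.051e-05, limma). Of the acinar markers listed, 13 of 16 were measured and all 13 lay above 4.54, the upper quartile of all values on the arrays, with a mean level of 13.472 to 13.542 over the KO arrays and 13.549 to 13.612 over the WT arrays. The transcription factors Ptf1a and Bhlha15 differed by -0.56 and -0.18, and the other 11, secreted enzymes and the granule protein Gp2, by -0.04 to 0.02. Those 11 had group means of 13.71 to 14.56, near the highest value on the arrays, 14.57, where a difference can be too small. Skeletal and smooth muscle markers, listed because muscle has subunit isoforms of its own, were above that quartile in 3 of 14, with list means of 3.521 to 3.580 over the KO arrays and 3.601 to 3.660 over the WT arrays. Fat markers were above it in 4 of 10, at 4.087 to 4.780 over the KO arrays and 4.545 to 5.024 over the WT arrays, and Ucp1, which defines brown fat, averaged 2.33 in KO and 2.36 in WT. The islet list ran at 6.971 to 7.102 in KO and 7.109 to 7.119 in WT, and the fibroblast list at 7.286 to 7.721 in KO and 7.794 to 8.097 in WT. The immune list ran at 3.674 to 4.612 in KO and 3.919 to 4.278 in WT, the duct list at 6.152 to 6.403 in KO and 6.171 to 6.188 in WT, and the endothelial list at 4.441 to 4.536 in KO and 4.597 to 4.626 in WT. Of the 10 endothelial genes 6 were lower and 4 higher in KO. Clec14a, at means of 3.31 in KO and 4.12 in WT, differed by -0.806 (adjusted p = 0.036 by limma). It was the 1 gene of that list under an adjusted p of 0.05, and the 4 above the quartile had a median difference of 0.020. In several lists KO replicate 1 was the lowest array over the markers above the quartile. Its median deviation from the gene means was -0.455 for 9 fibroblast, -0.747 for 4 fat and -0.908 for 4 immune markers. It was -0.651 for muscle, -0.152 for islet and -0.022 for acinar markers, again the lowest. For duct and endothelial markers KO replicate 1 stood above the gene means, at 0.063 and 0.057. Without that array the median difference of the 82 subunit genes, -0.016 with all arrays, was -0.002. The part of these cell types in the values below was not tested. Because the tissue was measured in bulk, fewer cells of a type and less RNA per cell cannot be told apart. The labels do not give the sex of the mice. Xist, a transcript of female cells, read 4.435, 9.1138 and 9.7926 in KO and 4.3046, 4.0048 and 9.0875 in WT. Xist was low in KO replicate 1 and in WT replicates 1 and 2, so the genotypes were not balanced for it. With the Xist level as a covariate the median difference of the 82 subunit genes was -0.037. The part of sex in the values below was not tested further.

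RefSeq promoter windows (assembly GRCm38.p6, from 250 bases before to 50 after each start) were matched by gene identifier for 67 of the 82 genes and for 14368 measured genes in all. A stretch of the NRF1 site, GCGCATGC on either strand, was found in 9 of the 67 (13.4%) and in 4.7% of the measured genes. The ETS core CCGGAAG, on either strand, was found in 17 (25.4%) of the subunit genes and in 2159 of the 14368 measured genes, and the YY1 core AAGATGGC, on either strand, in 9 (13.4%) and in 4.09%. A TATA box, TATAAA on either strand, was found in 11.9% of the member genes and in 11.5% of all. These shares describe exact matches to the letters, a gene counted once if any of its windows held the motif, and they show no binding. The printed promoters are those where the NRF1 letters matched on both strands in overlap and the match lay wholly before the start, and that of Sdhb, the complex II gene with a match. Each has 25 bases on either side, 5′ to 3′ as the gene reads, and capitals mark the match.
Sdhb, chr4:140961192-140961249, plus strand: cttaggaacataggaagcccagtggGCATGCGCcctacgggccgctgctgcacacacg
Atp5g2, chr15:102671055-102671114, minus strand: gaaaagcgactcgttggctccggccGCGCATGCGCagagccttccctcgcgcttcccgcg
Atp5k, chr5:108434415-108434474, minus strand: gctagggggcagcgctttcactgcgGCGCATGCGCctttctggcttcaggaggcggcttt
Cox6a1, chr5:115349086-115349145, minus strand: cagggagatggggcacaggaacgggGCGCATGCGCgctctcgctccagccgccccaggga

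None of the subunit genes differed past the threshold between KO and WT pancreas, and by the brightest probe sets the largest differences were small. No member probe set of the 169 and no member gene of the 82 passed an adjusted p of 0.05 in limma, where 0.0977% of all probe sets and 0.132% of all genes passed. At an unadjusted p under 0.05, limma called 0 of the 82 genes by the brightest probe set, 0 lower and 0 higher, while 10.1% of all genes were called, 5.58% lower and 4.55% higher. Among all genes above the upper quartile, where 73 of the subunit genes lay, 0.294% passed, and 9.68% were called lower and 4.59% higher at an unadjusted p under 0.05. By the brightest probe set, differences ran from -0.193 for Ndufb5 to 0.166 for Ndufa4l2, which is 1.143-fold lower to 1.122-fold higher. Among the other member probe sets above the upper quartile, differences reached -0.206 for Ndufa5 and 0.427 for Cox8c. Of the 82 genes, 50 were lower and 32 higher in KO by any amount, and with a second quantile normalization, applied on top of the deposited values, 34 were lower and 48 higher. As deposited, 50.2% of all genes and 61.7% of those above the upper quartile were lower, next to 61.0% of the subunit genes. The median difference was -0.016, against -0.001 over all genes and -0.042 over the 7141 genes above the upper quartile, and the second quantile normalization turned the subunits' median to 0.015. Genes measured on the same arrays are not independent of each other, so these counts are a description.

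The arrays were precise enough to bound these differences. The 95% interval lay within 0.5 log2 units of 0, a change of 1.41-fold either way, for 81 of the 82 genes, the exception being Cox8b. Above the upper quartile this held for all 73 subunit genes by their brightest probe sets, and for 79.2% of all genes at such levels. Other probe sets of a gene are not bounded by these intervals. A second Cox8c probe set, also above the quartile, differed by 0.427. The widest bounds among the 73 were -0.403 for Ndufb5 and 0.363 for Ndufs4. Within a genotype the subunit genes had a median SD of 0.0896 above the quartile, compared with 0.1347 for the other genes there. These groups were not matched for signal level. The part of level in this gap, and in the share of 79.2%, was not tested. Changes within these bounds could not be resolved with 3 arrays a genotype.

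**Figure D1:**
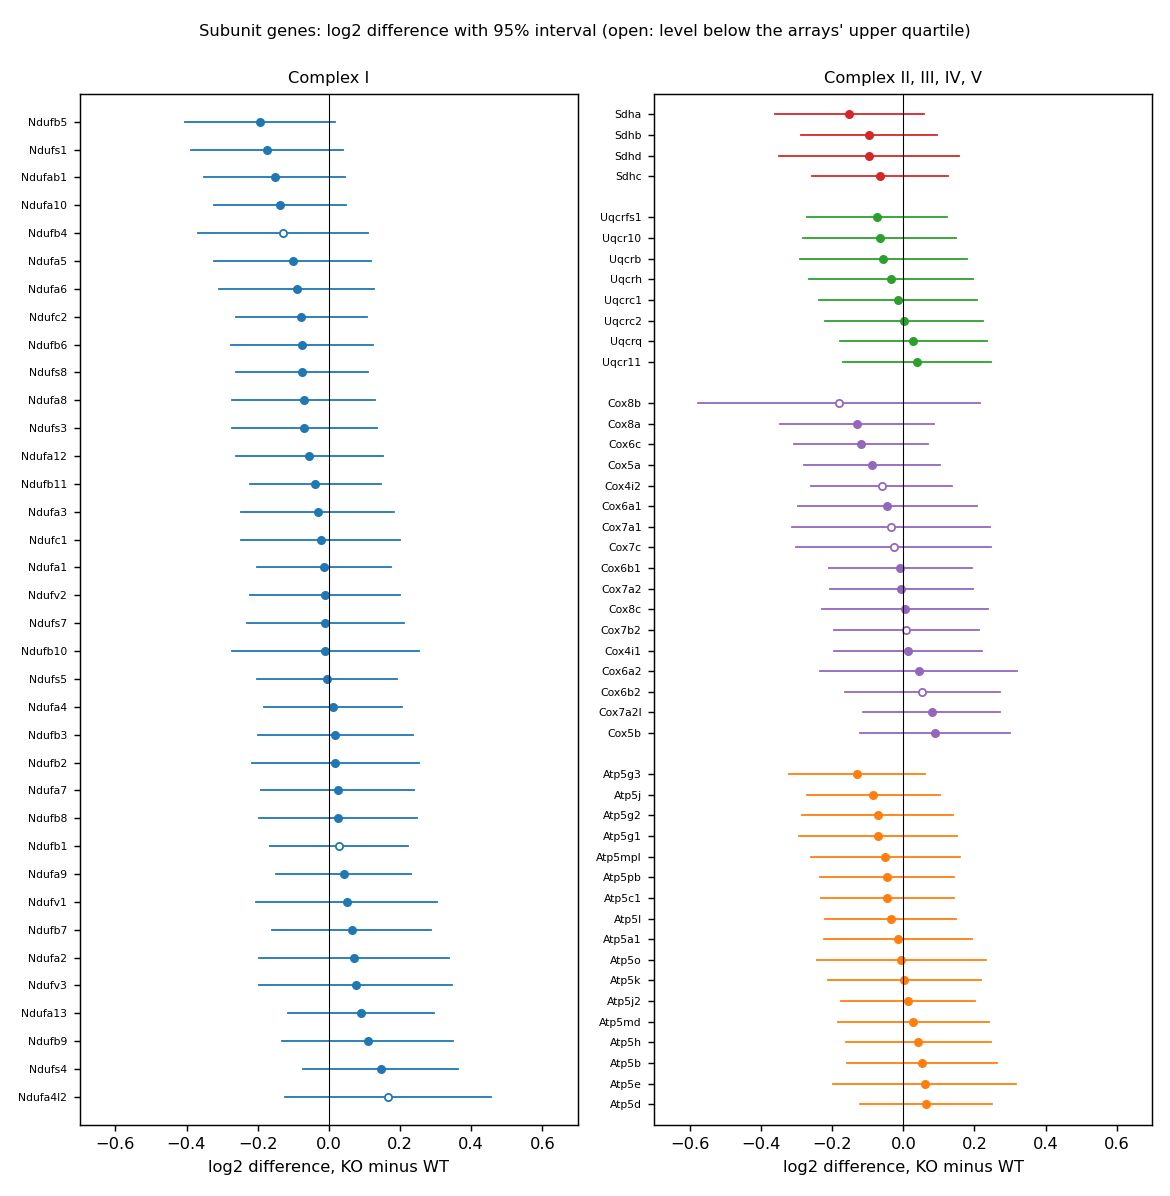
Log2 difference (KO minus WT, x axis) of the 82 subunit genes by the brightest probe set, with 95% intervals from limma, ordered within complex I (left) and complexes II, III, IV and V (right, from top to bottom). Every interval includes 0, and open symbols mark the 9 genes whose mean level lay below the upper quartile of 4.54.

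Complex I, the NADH dehydrogenase, had 21 of 36 genes lower and 15 higher in KO, with a median of -0.011 that ran from -0.059 to 0.036 over the alternative settings. The medians of complexes III, IV and V given below also took either sign over those settings. Ndufb5, an accessory subunit of the membrane arm, measured 9.48, 9.28 and 9.39 in KO and 9.50, 9.58 and 9.65 in WT. Its KO values all lay below its WT values, although KO replicate 1 and WT replicate 1 nearly met. Its difference of -0.193 (95% interval -0.403 to 0.016, adjusted p = 0.611 by limma) was the most negative of the 82 by the brightest probe set. Its other probe set read 8.68, 8.73 and 8.68 in KO and 8.68, 8.78 and 8.86 in WT, and those groups overlapped.

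Among the core subunits that carry electrons, Ndufv1, which binds NADH, differed by 0.05. Ndufs1, the largest iron-sulfur subunit, measured 6.82, 6.93 and 6.81 in KO and 6.91, 7.02 and 7.15 in WT, a difference of -0.173 (-0.387 to 0.040, adjusted p = 0.660 by limma). Its groups overlapped, since KO replicate 2 lay above WT replicate 1. The iron-sulfur subunits Ndufs8 and Ndufs7, which lie next to the ubiquinone site, differed by -0.076 and -0.010, and the core subunit Ndufs3 by -0.069. Ndufs8 had 6 probe sets, and their differences ran from -0.161 to 0.015.

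Ndufab1, the mitochondrial acyl carrier protein that also serves lipoate synthesis, read 9.13, 9.12 and 9.22 in KO and 9.25, 9.40 and 9.28 in WT at its brightest probe set. There KO lay wholly below WT, with a difference of -0.152 (adjusted p = 0.683 by limma), while another probe set of the gene, just above the upper quartile at 4.72 in KO and 4.55 in WT, lay wholly above it with a difference of 0.173. Ndufs4, an accessory subunit whose loss causes Leigh syndrome in humans, was higher by 0.145 (-0.073 to 0.363). Ndufa4, which biochemistry now places in complex IV despite its symbol, differed by 0.011 (-0.182 to 0.204). Ndufa4l2, its hypoxia-induced relative, read 3.64, 3.71 and 3.61 in KO and 3.46, 3.76 and 3.23 in WT, levels near the array medians, where a fold can be too small.

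Complex II, succinate dehydrogenase, is the one respiratory complex that belongs to the citric acid cycle as well. All 4 of its genes were lower in KO by their brightest probe set, none past the threshold, with a median of -0.096, which was -0.032 with a second quantile normalization and -0.147 with the Xist level as a covariate. Sdha, the flavoprotein that oxidises succinate, read 7.84, 7.98 and 8.07 in KO and 8.06, 8.18 and 8.11 in WT. KO replicate 3 lay just above WT replicate 1, and the difference was -0.152 (-0.361 to 0.058, adjusted p = 0.702 by limma). Sdhb, the iron-sulfur subunit, read 9.66, 9.70 and 9.79 in KO and 9.80, 9.79 and 9.85 in WT. Its groups did not overlap, by a small margin, with a difference of -0.097. The membrane anchors Sdhc and Sdhd differed by -0.066 and -0.096. The second Sdhc probe set read 6.46, 6.47 and 6.67 in KO and 6.67, 6.81 and 6.73 in WT, a difference of -0.205 (-0.419 to 0.009, adjusted p = 0.596 by limma), and the second Sdhd probe set differed by 0.103.

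In complex III, which moves electrons from ubiquinol to cytochrome c, 5 of 8 genes were lower and 3 higher, with a median of -0.025 and a range from -0.073 to 0.038. The Rieske iron-sulfur protein Uqcrfs1 read 8.32, 8.42 and 8.41 in KO and 8.38, 8.46 and 8.53 in WT, with overlapping groups and an interval of -0.270 to 0.124. The core proteins Uqcrc1 and Uqcrc2 differed by -0.016 and 0.002, and the small subunits Uqcrb, Uqcrq, Uqcr10 and Uqcr11 by -0.056, 0.028, -0.067 and 0.038. None of the 8 genes had groups that did not overlap. A dim probe set of Uqcrq read 2.31, 2.31 and 2.26 in KO and 2.60, 2.72 and 2.67 in WT. Of the 169 member probe sets, 2 had an unadjusted p under 0.05, 1 lower and 1 higher, where 8.68% of all probe sets had one, 4.66% lower and 4.01% higher. The Uqcrq probe set was the lower one, and its adjusted p was 0.249 by limma. At the brightest probe set of the gene, which read 10.96 to 11.09 in KO and 10.90 to 11.08 in WT, no such gap was seen.

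Complex IV, cytochrome c oxidase, hands the electrons to oxygen, and 10 of its 17 genes were lower and 7 higher, with a median of -0.008. The broadly expressed isoform Cox4i1 read 11.08, 11.11 and 11.18 in KO and 10.98, 11.19 and 11.17 in WT, with overlapping groups. Cox5a and Cox5b, neither of which has tissue isoforms in mammals, differed by -0.089 and 0.088. Cox6c read 10.53, 10.51 and 10.61 in KO and 10.63, 10.70 and 10.68 in WT, so its groups did not overlap, with a difference of -0.119 (-0.308 to 0.069, adjusted p = 0.740 by limma). A second Cox6c probe set differed by 0.126 in the opposite direction. Cox6a1, Cox6b1, Cox7a2 and Cox8a, the forms found in most tissues, differed by -0.045, -0.008, -0.006 and -0.131. Cox7a2l differed by 0.080.

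The tissue-restricted isoforms gave no difference past the threshold. Cox6a2, Cox7a1 and Cox8b, known from heart and skeletal muscle, differed by 0.043, -0.034 and -0.180, and the last 2 were below the upper quartile in both genotypes. Cox8b read 3.23, 3.85 and 3.96 in KO and 3.79, 4.04 and 3.75 in WT, where KO replicate 1 stood apart and gave the gene the widest interval of the group, -0.576 to 0.217. Cox4i2, an isoform known from lung, read 4.27, 4.23 and 4.09 in KO and 4.27, 4.28 and 4.22 in WT, and overlapped, and Cox6b2, known from testis, differed by 0.054.

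Cox8c, another isoform described in testis, gave the member probe set of smallest p. That probe set read 6.57, 6.65 and 6.59 in KO and 6.27, 6.19 and 6.06 in WT, a difference of 0.427 with groups that did not overlap (unadjusted p = 0.00095, adjusted p = 0.219 by limma). The brighter probe set of the gene read 8.23, 8.08 and 8.00 in KO and 8.05, 8.00 and 8.25 in WT, a difference of 0.005 (-0.228 to 0.238) with overlapping groups. The probe sets of Cox8c therefore do not give a single answer for the gene, and the brighter one carries a suffix that marks possible binding of several transcripts.

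**Figure D2:**
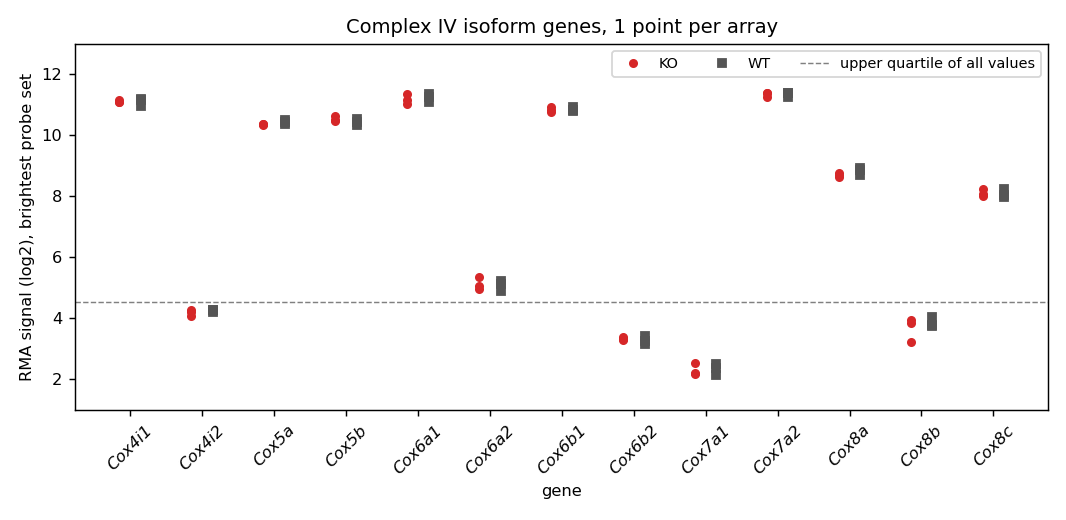
RMA signal (log2, y axis) of 13 complex IV genes in the 3 KO arrays (circles) and 3 WT arrays (squares), by the brightest probe set; the dashed line is the upper quartile of all values, 4.54. KO and WT points overlap in each gene shown, including the tissue-restricted isoforms.

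Complex V, the ATP synthase, had 10 of 17 genes lower and 7 higher, with a median of -0.015, and 10 of its intervals lay within 0.25 log2 units of 0. The catalytic head subunits alpha and beta, Atp5a1 and Atp5b, differed by -0.015 and 0.052, and Atp5c1, the gamma subunit of the central stalk, by -0.045. Atp5d, the delta subunit of the central stalk, read 9.86, 9.88 and 9.95 in KO and 9.84, 9.84 and 9.81 in WT, and it was the 1 member gene whose KO values all lay above its WT values by the brightest probe set. Its difference was 0.064 (adjusted p = 0.880 by limma), and its other probe set differed by -0.097.

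The rotor ring of ATP synthase is built from subunit c, which Atp5g1, Atp5g2 and Atp5g3 each encode. Atp5g3 read 11.24, 11.25 and 11.33 in KO and 11.38, 11.37 and 11.46 in WT, with no overlap and a difference of -0.130 (-0.321 to 0.060, adjusted p = 0.718 by limma). Atp5g1 differed by -0.071 and Atp5g2, which carries a printed NRF1 match, by -0.072, both with overlapping groups. Of the other genes printed with a match, Atp5k differed by 0.003, Cox6a1 by -0.045 and Sdhb by -0.097. The coupling subunit encoded by Atp5j differed by -0.084, with no overlap, and the peripheral stalk subunit Atp5o by -0.006.

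In all, KO lay wholly below WT in 9 of the 82 genes (11.0%), namely Ndufa10, Ndufab1, Ndufb5, Ndufc2, Ndufs8, Sdhb, Cox6c, Atp5g3 and Atp5j, and wholly above in Atp5d alone. Over all genes 7.56% lay wholly below and 6.87% wholly above. Among genes above the upper quartile 12.6% lay wholly below and 6.06% wholly above, against 12.3% and 1.37% of the subunit genes at such levels.

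Arrays of one genotype differed from each other by more than the genotype means did. Over the 73 subunit genes above the upper quartile, the median deviation from a gene's own mean was -0.050, -0.024 and 0.045 in KO replicates 1, 2 and 3, and -0.056, 0.061 and 0.046 in WT replicates 1, 2 and 3. WT replicate 1 was the lowest of the WT arrays in 57 of the 73 genes, and KO replicate 3 the lowest of the KO arrays in 6. Over all genes above the quartile these medians ran only from -0.032 to 0.037, and WT replicate 1 stood at 0.016. Without WT replicate 1 the median difference of the 82 genes was -0.057, and without WT replicate 2 it was 0.002.

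**Figure D3:**
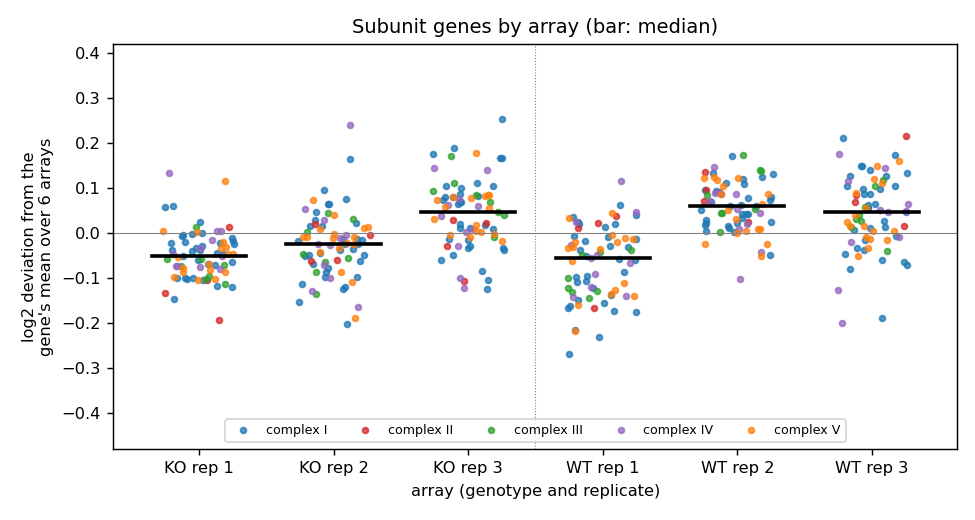
Deviation of each of 73 subunit genes from its own mean over the 6 arrays (log2, y axis) in the KO arrays (left) and WT arrays (right), coloured by complex, with bars at the medians. The bars of KO replicate 1, at -0.050, and WT replicate 1, at -0.056, lie close together, and those of the other arrays run from -0.024 to 0.061.

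Probe sets of the same gene mostly gave like differences. Of the member genes, 40 had at least 2 probe sets above the upper quartile, and the median range between their differences was 0.076. The range exceeded 0.2 in 3 of them, Cox8c, Ndufab1 and Cox6c. Of the 169 probe sets, 38 had a mean below the upper quartile, and 9 genes had no brighter one, among them Cox7c, Ndufb1 and Ndufb4, which respiring cells use throughout the body, so these probe sets bear little on their genes.

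Other parts of mitochondrial biology were set beside the subunits, by lists chosen for their roles. None of their genes passed the threshold. For the counts of lower genes in these lists, 50.2% of all genes and 61.7% of those above the upper quartile were lower as deposited. With a second quantile normalization these shares were 47.8% and 47.7%. Of 76 measured genes of the mitochondrial ribosome, which translates the subunits encoded by mitochondrial DNA, 64 were lower and 12 higher in KO, with a median of -0.079. With a second quantile normalization 42 were lower and 34 higher, with a median of -0.020. At an unadjusted p under 0.05, 13 were lower and 0 higher by limma, next to 5.58% and 4.55% of all genes. Among the 71 above the upper quartile 10 were lower and 0 higher, next to 9.68% and 4.59% of all genes at such levels. The count of 13 was 7 with that normalization and 7 without KO replicate 1. Mrps22, of the small ribosomal subunit, read 4.72, 4.80 and 4.88 in KO and 5.71, 5.34 and 5.25 in WT, with no overlap and a difference of -0.632 (-0.911 to -0.353, adjusted p = 0.180 by limma). Mrps6 differed by -0.647, with means of 3.86 in KO and 4.51 in WT that both lie below the upper quartile, and Mrpl18 by -0.370.

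The citric acid cycle and pyruvate dehydrogenase list, which supplies NADH and succinate to the chain, was lower in 14 of 16 genes and in 10 of 16 with a second quantile normalization. The list's median was -0.095, and -0.024 with that normalization. Idh3a, the catalytic subunit of the NAD-dependent isocitrate dehydrogenase, read 7.58, 7.75 and 7.73 in KO and 8.03, 8.04 and 8.18 in WT. Its groups did not overlap, with a difference of -0.393 (-0.602 to -0.184, adjusted p = 0.270 by limma). Idh3a was the 1 gene of the 16 with an unadjusted p under 0.05, next to 5.58% of all genes called lower and 4.55% higher. Among the 15 genes above the upper quartile 1 was lower and 0 higher, next to 9.68% and 4.59% of all genes at such levels. Citrate synthase (Cs) differed by -0.181 and Pdhb of pyruvate dehydrogenase by -0.184.

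Assembly factors, which build the complexes without staying in them, were lower in 31 of 43 genes, with a median of -0.078, and in 27 of 43 with a median of -0.033 after a second quantile normalization. Of the 43, 6 were lower and 1 higher at an unadjusted p under 0.05, next to 5.58% and 4.55% of all genes. Among the 35 above the upper quartile 3 were lower and 1 higher, next to 9.68% and 4.59% of all genes at such levels. Acad9, needed for complex I assembly, differed by -0.278 and Timmdc1, of the same process, by -0.275. Sco1, a copper chaperone of complex IV, read 4.17 in KO and 4.49 in WT, below the upper quartile. In the list of outer membrane, import and chaperone genes 15 of 21 were lower, with a median of -0.107, which was -0.043 with a second quantile normalization. Tomm40, the channel of the import pore, read 5.36, 5.37 and 5.63 in KO and 5.96, 5.90 and 5.84 in WT, a difference of -0.445 (adjusted p = 0.2496 by limma) with no overlap. The matrix chaperones Hspa9 and Hspd1 differed by -0.365 and -0.285.

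Electron carriers and related genes had a median of -0.034 over 22 genes, and the adenine nucleotide carrier Slc25a4 differed by -0.205. Among 21 regulators of mitochondrial biogenesis 3 were lower and 1 higher at an unadjusted p under 0.05, next to 5.58% and 4.55% of all genes, and among the 14 above the upper quartile 1 was lower and 1 higher, next to 9.68% and 4.59%. The activators whose motifs were searched did not pass the threshold, with differences of 0.21 for Nrf1 (adjusted p = 0.587 by limma), 0.05 for Gabpa, -0.16 for its partner Gabpb1 and -0.03 for Yy1. The coactivator Ppargc1a read 2.48, 2.99 and 2.85 in KO and 2.94, 3.55 and 3.15 in WT, near the array medians, so the difference of -0.438 (adjusted p = 0.514 by limma) can be too small. Nfe2l1 differed by -0.335 and the mitochondrial helicase Twnk by 0.260. Of subunits encoded by mitochondrial DNA only ND5 of complex I was measured here, and it read 12.11, 12.06 and 11.96 in KO and 12.19, 12.29 and 12.47 in WT. Its groups did not overlap, and the difference was -0.271 (-0.496 to -0.046, adjusted p = 0.488 by limma). Glycolysis genes had a median of -0.067 over 16 genes, with 0 at an unadjusted p under 0.05, next to 5.58% and 4.55% of all genes. Over the alternative settings the medians of these lists stayed negative, the nearest to 0 being -0.012 for the biogenesis regulators. Whether any of these lists differs from the subunits was not tested.

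**Figure D4:**
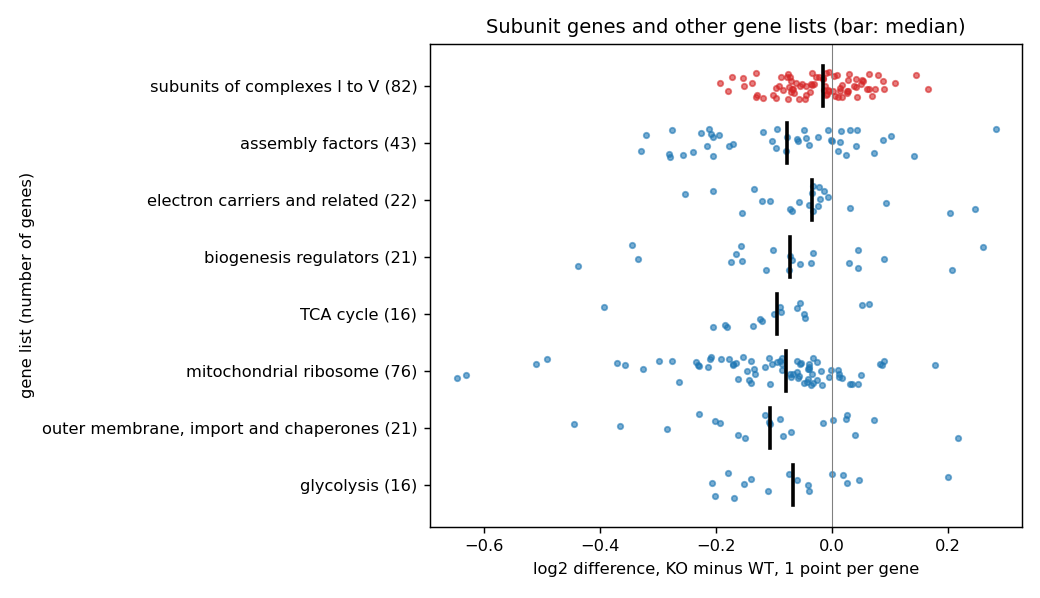
Log2 difference (KO minus WT, x axis) of each gene, 1 point per gene, in the subunit group (red, top row) and in 7 other gene lists, with bars at the medians. By the brightest probe set, the 82 subunit genes span -0.193 to 0.166 with a median of -0.016. The 76 genes of the mitochondrial ribosome have a median of -0.079 and reach -0.647 for Mrps6, whose means lie below the upper quartile in both genotypes.

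As a sign of RNA quality, for Actb the 3′ probe set exceeded the 5′ one by 1.892 ± 0.127 in KO arrays and by 1.895 ± 0.105 in WT arrays (SD, n = 3 each, two-sided exact permutation p = 1). For Gapdh it did so by 0.852 to 1.039 in KO arrays and by 0.629 to 0.971 in WT arrays, with a two-sided exact permutation p of 0.5. With 3 arrays against 3 this test cannot give a p below 0.1, so it could not have passed 0.05.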

How the data were processed

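Per the submitters' processing notes, the deposited log2 values come from RMA, with affy named as the package; versions and settings are not stated there. Because RMA equalises the arrays' distributions, it removes any shift common to most genes. Array medians were 2.97 to 3.02. Scanner files were not analysed here, so there are no detection calls, and precision is limited by having 6 arrays. Affymetrix controls (64 probe sets) were not tested. Groups came from the sample titles. Each probe set was tested in limma 3.58.1 (lmFit, eBayes; R 4.3.3) without covariates, two-sided, with Benjamini-Hochberg adjustment over all 45037 probe sets. A gene was represented by its brightest single-symbol probe set. P-values measure the spread between these samples. Members, lists and motifs were chosen with earlier results of these data known. The text names, by rule, the 3 genes of smallest p and the extremes of each complex, core and isoform subunits, and up to 3 genes of smallest p in each other list; other names were chosen after their values were seen. The settings varied were other scalings, a filter on dim probe sets, other variance models, the Xist level as a covariate, the replicate number as a block, other choices of probe sets, and leaving out each array. The fit was tested on simulated data. Figures were drawn with matplotlib 3.10.9.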

Additional observations from a re-analysis of the deposited data

How the results depend on the processing

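Under all 16 alternatives 0 subunit genes passed an adjusted p of 0.05 in limma, and the lowest adjusted p of any subunit gene was 0.239. In the alternatives that keep probe sets, 0 of the member probe sets passed 0.05. An adjusted p under 0.1 was tried in the main setting only, where 0 probe sets and 0 genes passed. The count at an unadjusted p under 0.05, which was 0 in each direction, became 1 lower with equal array medians (Ndufb5), 2 lower with an intensity trend and robust variance (Ndufb5 and Atp5g3), 1 higher when a gene's probe sets were averaged and 1 higher without suffix probe sets (Cox8c both times). With an array left out it ran from 0 to 1 lower and from 0 to 1 higher, with Ndufb5 called at -0.240 without KO replicate 1 and Ndufa4l2 at 0.304 without WT replicate 2. The median over the subunit genes ran from -0.057 to 0.015. By scaling, 61.0% of the subunit genes were lower in KO as deposited, 41.5% with a second quantile normalization and 72.0% with equal array medians, against 61.7%, 47.7% and 66.6% of all genes above the upper quartile; the cause was not tested. Of 694 recomputed values of the 44 named genes, 64 had the other sign, all of genes never past the threshold. The replicate numbers were not taken to pair the samples. Deviations of same-numbered KO and WT arrays correlated at 0.1883, -0.0308 and -0.0815, and those of differently numbered arrays at -0.157 to 0.1846. With so few arrays these values cannot settle whether the samples pair. With the number as a block 0 subunit genes passed, and the lowest adjusted p was 0.687. Levels below the upper quartile limit what the arrays show for 9 genes.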

Other observations

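A further 10 probe sets name a subunit gene together with another gene and were not used above. None passed the threshold in limma, and 1 had an unadjusted p under 0.05, a dim probe set shared by Yjefn3 and Ndufa13 that read 3.73, 3.84 and 4.06 in KO and 3.57, 3.72 and 3.55 in WT. Of the others, 6 lay well above the upper quartile of the arrays. Among them the probe set shared by Ndufab1 and Ndufab1-ps had the largest difference, -0.110, at means of 8.8869 in KO and 8.9965 in WT. The 2 sets shared by Ndufb4 and its copies differed by -0.012 and -0.040, that of Ndufs5 and Ndufs5-ps by -0.004, that of Ndufa11 and Ndufa11b by -0.027 and that of Ndufs6 and Ndufs6b by -0.014. In all 6 the genotypes overlapped. The probe set that names Ndufb4 alone lay below the array medians. Signals of a gene and its copies cannot be told apart in such sets.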
